A study of Homo sapiens with 2 samples.

Results

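Bidirectional protein-coding promoters were the regions examined here: places where 2 protein-coding genes start head to head on opposite strands. The members were all pairs of GENCODE 44 protein-coding genes on chromosomes 1 to 22 and X whose 5′ ends lay at most 1 kb apart and whose bodies did not overlap. The annotation held 887 such pairs, with 1710 of the 19970 protein-coding genes searched. Some genes sat in more than 1 pair, and the pairs formed 824 sets that shared no gene. The distance between the 5′ ends ranged from 1 to 995 bp, with a median of 132 bp. The data were peaks from CUT&Tag, in which an antibody directs a transposase to cut and tag nearby chromatin, with an antibody to NUDT21. Both samples were J.gamma1, an established human T-ALL line derived from Jurkat, and formed 1 group of 2 replicates, with no control sample analysed here. Replicate 1 held 97162 peaks and replicate 2 held 68532, the read depth is unknown, and both lists came from 1 cell line.

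In a bidirectional promoter, a single nucleosome-depleted region serves transcription in both directions. Such promoters are typically rich in CpG, often lack a TATA box, and often belong to housekeeping genes for DNA repair, the cell cycle and mitochondria. NUDT21 is the small subunit of cleavage factor I, which binds UGUA in pre-mRNA and influences which polyadenylation site is used. A peak here marks cutting at DNA in an assay with the NUDT21 antibody and does not show which of the 2 genes is transcribed. With no control sample analysed here, how much of the cutting depended on the antibody was not tested.

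Stretches between the 5′ ends of 6 pairs are shown because they set 4 well-known gene pairs beside the 2 pairs with the best fold ranks summed over both lists. They were read from the plus strand of hg38, 5′ to 3′, and lie outside both genes of the pair. Capitals mark exact matches, on either strand, to ETS (CCGGAAG), NFY (CCAAT), NRF1 (GCATGCGC), YY1 (AAGATGGC), SP1 (GGGCGG) or the TATA box (TATAAA).
PPAT-PAICS (chr4:56435616-56435740): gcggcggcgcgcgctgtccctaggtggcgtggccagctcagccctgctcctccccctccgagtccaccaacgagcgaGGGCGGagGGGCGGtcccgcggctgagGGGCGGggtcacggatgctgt
TK1-AFMID (chr17:78187234-78187357): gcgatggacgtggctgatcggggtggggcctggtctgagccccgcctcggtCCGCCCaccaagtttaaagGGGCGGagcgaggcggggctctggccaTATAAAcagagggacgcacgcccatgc
PCNA-CDS2 (chr20:5126627-5126878): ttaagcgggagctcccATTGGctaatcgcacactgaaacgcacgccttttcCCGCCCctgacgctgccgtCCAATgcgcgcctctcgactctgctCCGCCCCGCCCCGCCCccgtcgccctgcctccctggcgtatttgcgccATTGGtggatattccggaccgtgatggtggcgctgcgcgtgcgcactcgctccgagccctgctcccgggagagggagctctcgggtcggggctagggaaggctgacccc
UFD1-CDC45 (chr22:19479203-19479456): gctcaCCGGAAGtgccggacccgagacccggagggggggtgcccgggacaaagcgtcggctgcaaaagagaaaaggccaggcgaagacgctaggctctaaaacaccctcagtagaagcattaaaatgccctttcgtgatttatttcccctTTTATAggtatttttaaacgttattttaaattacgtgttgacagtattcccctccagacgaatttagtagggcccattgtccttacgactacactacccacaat
H2BC4-H2AC6 (chr6:26123927-26124144): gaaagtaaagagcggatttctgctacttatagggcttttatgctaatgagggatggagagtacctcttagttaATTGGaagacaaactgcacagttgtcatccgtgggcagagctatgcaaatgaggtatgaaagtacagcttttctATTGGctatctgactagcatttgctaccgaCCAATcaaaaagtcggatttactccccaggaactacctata
H2BC21-H2AC20 (chr1:149886683-149886917): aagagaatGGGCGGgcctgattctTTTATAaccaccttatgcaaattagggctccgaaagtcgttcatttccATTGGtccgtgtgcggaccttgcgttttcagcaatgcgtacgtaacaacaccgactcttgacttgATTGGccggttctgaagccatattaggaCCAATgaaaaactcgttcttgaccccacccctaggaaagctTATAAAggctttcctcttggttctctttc
The stretch between PPAT and PAICS held 3 SP1 matches and was 76.0% GC. The PCNA-CDS2 stretch held 3 NFY and 4 SP1 matches. The stretches at both histone pairs held 3 NFY matches each with only 41.7% and 46.4% GC. Stretches at SIRT3-PSMD13, also well known, and MICOS13-HSD11B1L, also among the best fold ranks, were read but are not shown. They held no match to any of these motifs, with 88.2% and 67.8% GC.

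Most bidirectional promoters carried NUDT21 peaks. A peak reached within 1 kb of either 5′ end at 782 of 887 pairs in replicate 1, or 88.2% (95% Wilson interval 85.9 to 90.1), beside 61.7% of all protein-coding promoters. In replicate 2 it did so at 680 pairs, or 76.7% (73.8 to 79.3), beside 47.5% of all protein-coding promoters. Both replicates had a peak at 677 pairs, or 76.3% (73.4 to 79.0), beside 46.7% of all protein-coding promoters. Replicate 1 alone had a peak at 105 pairs and replicate 2 alone at 3, and 102 pairs had none. All intervals cover counting error only, and neighbouring promoters are not independent replicates.

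Single promoters were then used for the comparison at like GC content. These were the 14968 protein-coding 5′ ends with no other protein-coding 5′ end within 5 kb. Before any adjustment they held a peak in 55.5% of cases in replicate 1, 40.4% in replicate 2 and 39.6% in both. Pairs had a median GC of 56.6% in a 2001 bp window and single promoters had 54.6%. Single promoters were therefore weighted to the GC of the pairs, in strata of 5 percentage points.

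At like GC, pairs were occupied more often than single promoters in both replicates. In replicate 1 a peak lay in 88.0% of pair windows and 66.3% of single windows, a difference of 21.8 percentage points (95% interval 19.5 to 24.0). In replicate 2 the shares were 76.7% and 48.5%, a difference of 28.1 points (25.2 to 31.0). The mean difference was 24.95 ± 4.49 percentage points (SD, n = 2), larger than its spread between replicates. A pair offers 2 starts to hold a peak, so 2 single promoters of like GC, each counted without regard to the other, give a yardstick. Such a couple would hold at least 1 peak in 85.6% of cases in replicate 1 and 71.8% in replicate 2, which is 2.48 and 4.86 points below the pairs. No interval was computed for these 2 gaps, and the couple is counted over 2 windows against 1 window of a pair.

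**Figure D1:**
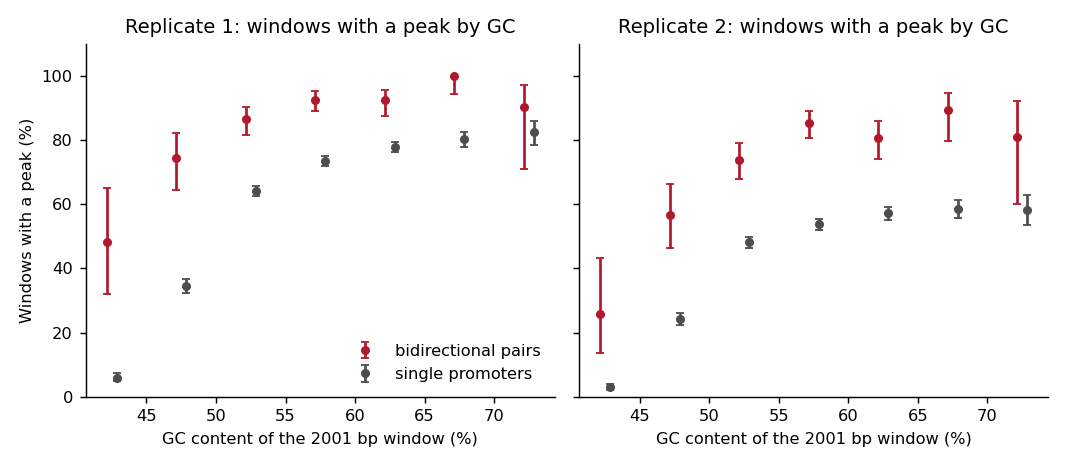
Share of windows with a peak (y axis, percent) by GC content of the window (x axis, strata of 5 percentage points with at least 10 pairs), for bidirectional pairs (red) and single promoters (grey) in each replicate. Bars are 95% Wilson intervals, and pairs lie above single promoters in every stratum drawn, with intervals that overlap only at 70 to 75% GC.

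In replicate 1 the gap was widest below 50% GC, while in replicate 2 it had no such trend. Between 45 and 50% GC, replicate 1 had a peak at 74.4% of 90 pairs and 34.5% of 2061 single promoters. In the same stratum, replicate 2 had one at 56.7% of pairs and 24.1% of single promoters. Between 65 and 70% GC, all 66 pairs held a peak in replicate 1, against 80.4% of single promoters.

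On average, occupied pairs also ranked higher within each list. The rank of a promoter is the percentile of its highest fold enrichment, column 7 of the list, among the peaks on chromosomes 1 to 22 and X. In replicate 1 the mean percentile was 72.3 for occupied pairs and 64.1 for occupied single promoters of like GC, a difference of 8.15 percentile points (95% interval 5.96 to 10.3). In replicate 2 the means were 68.8 and 60.9, a difference of 7.91 points (5.53 to 10.3). Low-GC strata did not share this. Between 40 and 45% GC, 15 occupied pairs averaged 46.5 against 53.2 for single promoters in replicate 1. In replicate 2, 8 occupied pairs averaged 47.5 against 53.2. Between 45 and 50% GC the means were 58.27 and 58.32 in replicate 1 and 58.4 and 56.6 in replicate 2. The mean difference was 8.03 ± 0.165 percentile points (SD, n = 2). It depended on the peaks kept, at 5.25 points once peaks under a −log10 q of 5 were dropped, and 1.97 points when each list was limited to its 10000 peaks of highest −log10 p. Median percentiles were 85.8 and 74.4 in replicate 1 and 79.8 and 67.7 in replicate 2, for pairs and for single promoters with no GC weighting. The ranks were uneven, since 43.4% of occupied pairs in replicate 1 and 35.4% in replicate 2 lay at or above the 90th percentile of their list, while 24.0% and 25.7% lay below the 50th.

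The fold divides the pileup at a summit by a control level, after 1 is added to each, and both were recovered from the deposited values. The mean pileup at like GC was 71.2 for pairs and 53.5 for single promoters in replicate 1, and 41.2 and 32.1 in replicate 2. The control level moved with it, at 10.3 against 8.85 in replicate 1 and 6.10 against 5.29 in replicate 2. By rank within the list, the pileup of pairs was higher by 11.2 and 11.5 percentile points and the control level by 6.17 and 5.48. The part of the control level in the rank difference was not tested.

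Some single promoters have a lncRNA starting on the opposite strand within 1 kb, upstream or downstream, but only 1 protein-coding gene. The class can hold divergent starts and also lncRNAs that start inside the gene, which were not separated. There were 2157 such single promoters. At like GC, pairs were occupied more often than they were, by 15.0 points (12.2 to 17.8) in replicate 1 and 22.7 points (19.2 to 26.2) in replicate 2. Against the 12811 single promoters without such a lncRNA the differences were 22.9 and 29.1 points. The rank differences were 6.66 and 6.25 percentile points against the first class and 8.51 and 8.32 against the second.

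**Figure D2:**
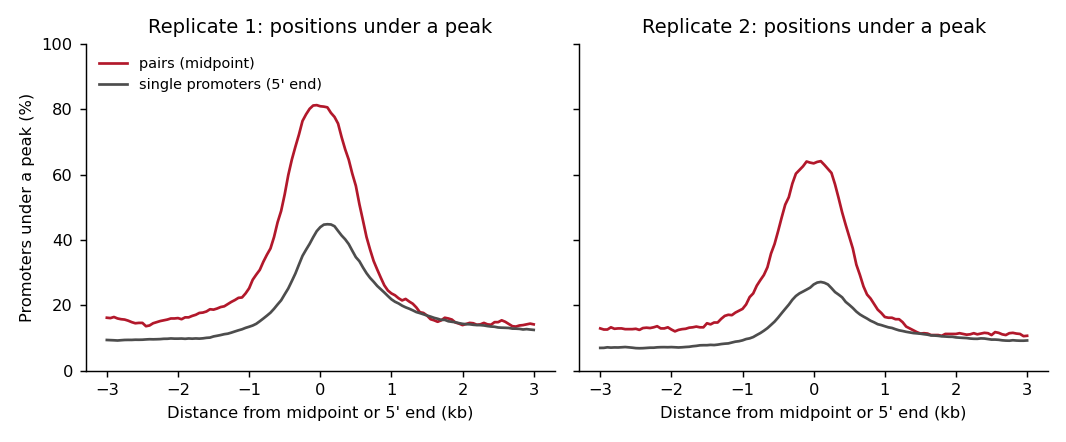
Percent of promoters under a peak (y axis) by distance in kb (x axis) from the midpoint of a pair (red) or the 5′ end of a single promoter in its direction of transcription (grey), for each replicate, with no GC weighting. At 0 kb, 80.9% of pairs and 43.95% of single promoters were under a peak in replicate 1, and 63.5% and 26.4% in replicate 2.

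Taken over all pairs, which have a gene body on each side, coverage by peaks was nearly even around the midpoint. The sides were set by hg38 strand, so this evenness does not describe single pairs. The positions with at least 50% of the highest coverage spanned -650 to 650 bp around the midpoint in replicate 1, and -600 to 600 bp in the other replicate. For single promoters they spanned -500 to 950 bp and -600 to 1000 bp, further on the side of the gene body. A single peak interval covered both 5′ ends at 679 of the 782 occupied pairs in replicate 1, or 86.8% (84.3 to 89.0), and at 507 of 680 in replicate 2, or 74.6% (71.2 to 77.7). This share depends on the distance, since the strongest peaks had median lengths of 1230 and 1047.5 bp and the 5′ ends a median distance of 132 bp. For ends over 300 bp apart it was 73.2% in replicate 1 and 71 of 140 pairs in replicate 2. Only 1 peak was present at 89.6% and 87.5% of occupied pairs.

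The summit of the strongest peak lay between the 5′ ends at 26.5% of occupied pairs in replicate 1 and 17.9% in replicate 2. It lay on the side of the minus-strand gene at 35.3% and 41.6%, and on that of the plus-strand gene at 38.2% and 40.4%. Strand is only the orientation of a gene on hg38, so this split cannot show whether 1 gene of a pair dominated. The median distance of this summit from the midpoint was 171.5 bp in replicate 1 and 209.5 bp in replicate 2. With 100 bp allowed beyond either end, 50.8% (47.3 to 54.3) and 42.4% (38.7 to 46.1) of summits were included. The share between the ends depends on how much room there is: it was 6.48% in replicate 1 and 2.86% in replicate 2 for ends up to 100 bp apart, and 61.8% and 70 of 140 pairs for ends over 300 bp apart.

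Occupancy by distance was examined next. A peak in both replicates was found at 244 of 342 pairs up to 100 bp apart, or 71.3% (66.3 to 75.9). The share was 78.1% (73.7 to 82.0) of 375 pairs over 100 and up to 300 bp apart and 82.4% (75.9 to 87.3) of 170 pairs over 300 bp apart. GC rose along the same classes, with medians of 55.7%, 56.7% and 59.6%. At like GC, the excess over single promoters in replicate 1 was 21.9, 21.5 and 22.2 percentage points in the 3 classes, well within their intervals of each other. In replicate 2 it was 24.9, 29.7 and 31.0 points, with intervals that overlapped. Of the 77 pairs over 1 kb and up to 2000 bp apart, 53 had a peak in both replicates, or 68.8% (57.8 to 78.1), and of 509 head-to-head pairs whose bodies overlapped, 395 did, or 77.6% (73.8 to 81.0). At the limit of 1 kb itself, the pair just inside it, PSMB1-TBP at 995 bp, held 2 peaks in each replicate, and so did the pair just outside it, TXNDC12-BTF3L4 at 1008 bp.

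**Figure D3:**
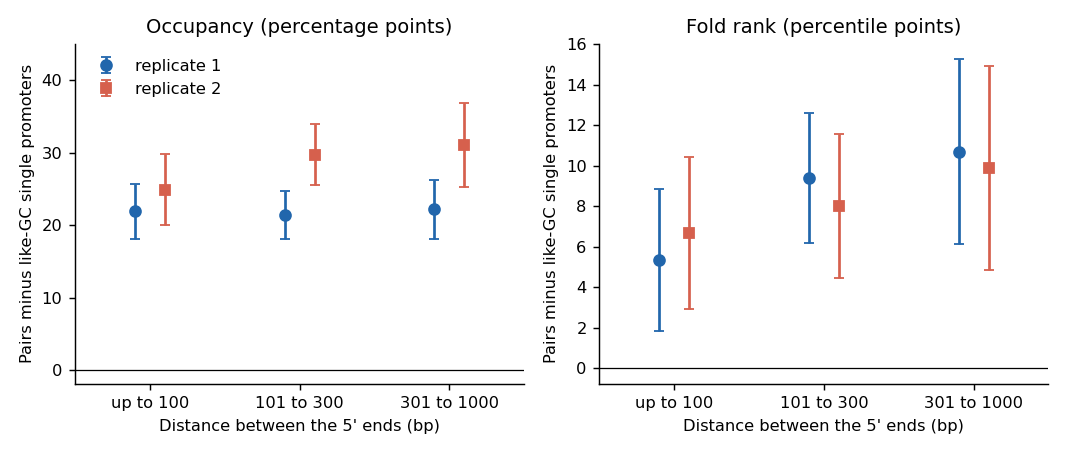
Difference between pairs and single promoters of like GC (y axis) in occupancy (left, percentage points) and in fold rank (right, percentile points) by distance between the 5′ ends in bp (x axis), for replicate 1 (circles) and replicate 2 (squares). Bars are 95% intervals for counting error, all lie above 0, and those of the 3 classes overlap within each panel and replicate.

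The order of the pairs was then compared between replicates. Over the 677 pairs with a peak in both, Spearman's rho of the fold was 0.819, a description across promoters with no p, and both folds use a control level. The summits of the strongest peaks lay within 200 bp of each other at 499 pairs, or 73.7%. Pairs found only in replicate 1 were weaker there, with a median percentile of 43.8 beside 88.8 for pairs found in both.

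**Figure D4:**
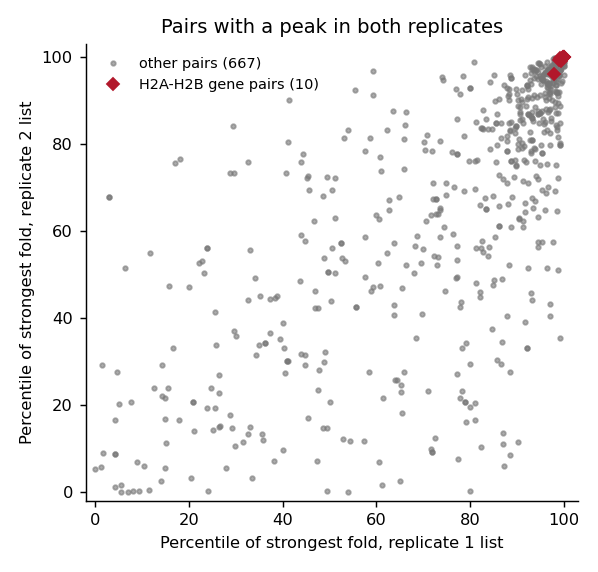
Percentile of the strongest fold of each pair within the replicate 1 list (x axis) and the replicate 2 list (y axis), for the 677 pairs with a peak in both replicates. Diamonds mark the 10 H2A-H2B gene pairs, all above the 96th percentile in both lists.

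Divergent histone genes were among the pairs with the highest folds. Of the 20 occupied pairs with the highest fold, 4 in replicate 1 and 6 in replicate 2 joined an H2A gene to an H2B gene, and the highest fold of replicate 1 was at another pair, METTL26-MCRIP2. Of the 5 pairs with the best summed fold ranks, 3 joined an H2B gene to an H2A gene, which encode the core histones that form a dimer in the nucleosome. The fold at H2BC4-H2AC6 was 34.6 in replicate 1 and 34.1 in replicate 2. At H2BC21-H2AC20 it was 33.3 and 28.2, and at H2BC11-H2AC11 it was 24.6 and 21.6. These genes are replication-dependent, and their mRNAs normally end in a stem-loop without a poly(A) tail. All 12 H2A-H2B pairs among the members were therefore listed after these values had been seen. A peak in both replicates was found at 10 of the 12, beside 76.3% of all pairs, and in neither at 2, H2AC1-H2BC1 and H2BC8-H2AC8. Of the other pairs, 88.2% had a peak in replicate 1 and 76.6% in replicate 2. Folds of the occupied histone pairs lay between 10.4 and 34.6 in replicate 1, and between 8.44 and 34.1 in the other replicate, and the windows of these 10 pairs had a median GC of 51.1%. Their median percentile was 99.66 and 99.902, beside 85.6 and 78.8 for the other occupied pairs. These genes are near-identical copies, and how reads that fit several of them were placed is not given in the sources used here, so single members are uncertain.

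The other 2 of the 5 lay in long peaks. METTL26-MCRIP2 had a fold of 41.5 in a peak of 15515 bp in replicate 1 and 20.6 in a peak of 7115 bp in replicate 2. MICOS13-HSD11B1L, whose first gene encodes a subunit of the mitochondrial cristae complex, had folds of 24.6 and 22.8. Its peak spanned 39166 bp in replicate 1 and 8145 bp in replicate 2, so the peak was not limited to this promoter. Peaks of at least 10 kb held the strongest summit at 20 occupied pairs in replicate 1 and 9 in replicate 2. The pair with the closest 5′ ends, NOXO1-GFER at 1 bp, lay in peaks of 24429 and 23784 bp.

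Of the 17 well-known pairs looked for by name, 7 met the rule. All 7 had a peak in both replicates, beside 76.3% of all pairs. PPAT and PAICS encode enzymes of de novo purine synthesis, and their fold was 6.82 in replicate 1 and 6.75 in replicate 2. TK1, the thymidine kinase of dividing cells, and AFMID had folds of 14.3 and 8.98. SIRT3, a mitochondrial deacetylase, and PSMD13, a proteasome subunit, had folds of 8.40 and 8.25. These 3 pairs ranked above the 90th percentile of both lists. The other 4 ranked below the 90th percentile in both lists. NPAT, a coactivator of histone genes, and ATM, the kinase that signals DNA breaks, had folds of 3.38 and 3.03, at percentiles 31.6 and 11.6. UFD1 and CDC45, a component of the replicative helicase, had folds of 2.88 and 4.14. PCNA, the sliding clamp of DNA polymerases, and CDS2 had folds of 5.53 and 3.21, at percentiles 81.1 and 16.7, so its rank differed widely between the replicates. PDCD10-SERPINI1 had folds of 3.41 and 3.09. Low fold did not mean few fragments: the pileup at NPAT-ATM was 100.4 over a control level of 29.0 in replicate 1, while that at TK1-AFMID was 59.9 over 3.24. NUDT21 itself overlaps OGFOD1 by 678 bp and was no member, with a fold of 6.74 and 4.49 at that promoter.

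Gene lists were described by their counts, beside 76.3% of all pairs with a peak in both replicates. Of 44 pairs with a gene of DNA repair or replication, 39 had a peak in both, or 88.6%, as had 79.7% of the single promoters of that list. Among them, BRCA1-NBR1, with a gene of homologous recombination, had folds of 7.28 and 7.82. The pairs with a peak in neither were MRE11-ANKRD49, LIG4-ABHD13 and PRSS54-GINS3, and those of RAD52 and GINS1 had one only in replicate 1. All 9 pairs with a gene of RNA 3′ end processing had a peak in both (70.1 to 100), as had 68.2% of their single promoters. ITGB1BP1-CPSF3, with the endonuclease of pre-mRNA cleavage, had folds of 6.37 and 8.35. CPSF7-SDHAF2, with a partner of NUDT21 in cleavage factor I, had folds of 6.60 and 5.94. INTS11-CPTP, with the endonuclease of the Integrator complex, had folds of 18.9 and 10.7. Chaperone genes had a peak in both at 12 of 13 pairs (66.7 to 98.6) and mitochondrial genes at 36 of 47, or 76.6% (62.8 to 86.4). Their single promoters were at 65.7% and 62.9%. For zinc finger genes it was 19 of 30 pairs, or 63.3% (45.5 to 78.1), and their single promoters were at 45.3%. The interval of each list included the 76.3% of all pairs.

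Pairs without a peak had lower GC, with a median of 51.6%, than the 57.3% of pairs with a peak in both. Some were GC-rich all the same. The 5 with the highest GC were SEPTIN10-SOWAHC at 73.0%, GPR143-SHROOM2, PAQR9-U2SURP, COL4A4-COL4A3 and PTPN3-PALM2AKAP2. COL4A4 and COL4A3 encode collagen chains of basement membranes, and GPR143 encodes a receptor of pigment cells. The 3 pairs with a peak in replicate 2 only were GLA-HNRNPH2, PEX11A-WDR93 and YIPF5-KCTD16, with folds of 4.89, 3.06 and 2.501. At the lower end of the pairs found in both, COMMD6-UCHL3 had a fold of 1.82 in replicate 1 and 2.76 in replicate 2, and MTERF3-PTDSS1 had 2.45 and 1.86. By chromosome, both replicates had a peak at 9 of 26 pairs on X, or 34.6%, and at 55 of 58 on chromosome 17, or 94.8%. Single promoters were at 17.3% and 65.2% on the same chromosomes.

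Sequence matches were counted within 150 bp of the midpoint of a pair or the 5′ end of a single promoter. ETS matches stood at 27.2% of pairs and 11.6% of single promoters of like GC, a difference of 15.6 points (12.6 to 18.6). NFY matches stood at 40.6% and 31.8%, NRF1 at 9.13% and 3.503%, YY1 at 5.98% and 3.52%, and SP1 at 70.8% and 61.4%. The TATA box stood at 5.19% and 6.67%, and TGTA, which reads UGUA in RNA, at 44.5% and 45.2%, differences whose intervals included 0. That depended on the window: from 250 bp before to 50 bp after each 5′ end, the difference was -3.27 points (-4.40 to -2.15) for the TATA box and -5.99 points (-8.46 to -3.52) for TGTA. These intervals treat the 1774 windows of pairs as separate, though both windows of a pair can share sequence, so they are likely too narrow. Over all single promoters, with no GC weighting, the shares were 1497 of 14968 for ETS, 33.5% for NFY, 3.01% for NRF1, 3.26% for YY1, 52.5% for SP1, 10.1% for the TATA box and 51.7% for TGTA. Among pairs, a peak in both replicates was found at 75.5% of those with an ETS match and 76.6% of those without it. Among single promoters the shares were 61.4% with it and 37.2% without it, with no GC weighting. For SP1 they were 78.7% and 70.7% among pairs and 51.7% and 26.2% among single promoters. A match is a description of the letters and not a bound site.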

How the data were processed

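CUT&Tag for NUDT21 was performed in J.gamma1 cells in 2 replicates, which the study describes as independent. Per the study's methods and the submitters' processing notes, the authors processed reads with fastp, aligned them to hg38 with Bowtie2 2.2.5, removed duplicates with Picard and called peaks in each replicate with MACS3 3.0.1. The use of a control library and the authors' annotation release are not given in the sources used here. The deposited lists give for each peak the fold enrichment at the summit (a ratio), its −log10 p and −log10 q, and a score, which was not used. Fold and −log10 p together gave the pileup and control level, on a scale of each list's own. Recovered pileups lay within 0.01 of a whole number for 100% of peaks in replicate 2 but 2.67% in replicate 1, and control levels did so for 0.411% in replicate 2 and 34.3% in replicate 1. MACS scales 1 library to the other when it is given a control library, so the fold and the control level may refer to a control library that is not described. Folds were ranked only within a list.

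Promoters came from GENCODE 44 gene 5′ ends. Windows of 2001 bp were compared in GC strata of 5 percentage points, leaving out strata with fewer than 10 single promoters, which left out 1 occupied pair from each rank comparison. With 1 group of 2 replicates no test was made over promoters, and 95% intervals cover counting error only. Both the weighting and the pileup recovery were tested on simulated data. The simulated pileups were whole numbers, as were only 2.67% of those recovered in replicate 1, so the recovery was not tested for that setting. Pairs, gene lists and alternatives were chosen with earlier results of these data known. Pairs named were a fixed set of 17 known pairs, the 5 highest and 5 lowest by summed fold rank, the 5 without a peak highest in GC, those in replicate 2 only, and the closest and farthest 5′ ends. Members of gene lists and the histone pairs were named after their values were seen. Python 3.11.15, numpy 2.4.6, pandas 2.3.3, scipy 1.17.1 and pysam 0.24.0 were used.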

Additional observations from a re-analysis of the deposited data

Results flagged for a closer look

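Peaks on hg38 sequences other than chromosomes 1 to 22, X and Y, which no comparison used, numbered 4440 in replicate 1 and 1861 in replicate 2, and there was no control sample to set them against.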

How the results depend on the processing

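No paired analysis was possible because the series has a single group and nothing to pair it with. No alternative reversed a direction. The occupancy difference was 34.4 points with no GC adjustment and 18.9 against single promoters with a lncRNA, and 21.8 to 28.1 with either replicate left out. The rank difference, whose spread between replicates was only 0.165, was 9.03 with canonical transcript starts, 7.82 within 500 bp, 9.11 by summits, 5.25 at a −log10 q of at least 5, 1.97 in the 10000 peaks per list with the highest −log10 p, 7.55 with 1 pair per shared gene, 7.37 in GC and CpG strata, 7.46 with no GC adjustment, 8.42 and 6.46 against single promoters without and with a lncRNA, 6.69 against those over 1 kb from another 5′ end, 8.76 for the nearest peak, 11.1 by −log10 q and 11.3 by pileup. It was 7.91 to 8.15 with either replicate left out. Keeping only peaks under 10 kb, chosen after seeing the data, gave 24.3 points of occupancy and 8.04 of rank.

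The share of pairs with a peak in both was 82.1% with canonical starts, 72.6% by summits, 69.7% at the stricter q and 39.8% in the 10000 peaks, and 76.7 to 88.2% in 1 replicate alone. Summits between the ends or within 100 bp were 59.9% with canonical starts and 42.4 to 50.8% with a replicate left out. The share with 1 peak over both ends was 74.6 to 86.8%. With no GC weighting, the occupancy of pairs over 300 bp apart minus that of pairs up to 100 bp apart averaged 8.70 points over the replicates. This difference was 17.1 points in the 10000 peaks and 6.68 to 10.7 with a replicate left out. With windows from 250 bp before to 50 bp after each 5′ end, the differences were 13.1 points for SP1, -3.27 for TATA and -5.99 for TGTA. In GC and CpG strata, chosen after seeing the data, the pileup rank difference was 8.92 and that of the control level 4.26. They were 11.2 to 11.5 and 5.48 to 6.17 with a replicate left out. In the 10000 peaks, also added later for the lists, a peak in both was found at 45.5% of DNA repair and replication pairs, 34.0% of mitochondrial, 38.5% of chaperone and 23.3% of zinc finger pairs. Depth is unknown, so a missing peak in the shorter replicate 2 list is not an absence of NUDT21.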
